A study of Homo sapiens with 6 samples.

Results

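NCAM1, the enzymes that put polysialic acid on it and the enzymes that build the ganglioside GD2 were followed as a group of 9 genes, chosen by name from the 60612 gene rows of the deposited table. The 9 are NCAM1, the sialyltransferase genes ST8SIA1, ST8SIA2, ST8SIA3, ST8SIA4 and ST8SIA5, and the ganglioside enzyme genes ST3GAL5, B4GALNT1 and B3GALT4. They were picked after values of the comparison below had been seen, ST8SIA2 among them, so their differences between groups are given as a description, with no p-value printed and nothing supported by whether a member was called. The RNA came from SH-SY5Y, an established neuroblastoma line of human origin with neuronal character, and was sequenced in 3 libraries of cells infected with a control vector ("stuffer") and 3 of cells labelled for CDKN2B-AS1 overexpression, for which the labels do not spell out the means. All 6 libraries come from a single line. No source used here says which kind of vector or promoter was used, how long after infection RNA was taken, or whether replicates are separate cultures. Errors and p-values therefore cover only the library-to-library spread, possibly a technical one. The column names carry the tag LVx1 for the control vector and LVx2 for the overexpression label, and whatever these unexplained tags stand for cannot be told apart from the overexpression label itself. Wherever 3 values of a group are listed, they stand in the order of replicates 1, 2 and 3.

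Polysialic acid is a long chain of sialic acid units that the Golgi enzymes ST8SIA2 and ST8SIA4 attach to N-glycans of the neural cell adhesion molecule NCAM1, where it loosens contacts between cells, and it is abundant in the developing nervous system and in neuroblastoma. Gangliosides are sialic acid-bearing glycolipids. ST3GAL5 makes GM3 from lactosylceramide, ST8SIA1 turns GM3 into GD3, B4GALNT1 turns GM3 and GD3 into GM2 and GD2, and B3GALT4 extends these to GM1 and GD1b. GD2 is the surface glycolipid that antibody therapy of neuroblastoma is directed at.

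Depth recovered from the values ran from 20466583 to 48996425 assigned fragments per library, and intervals or floors drawn from it cover counting error only, since cDNA was amplified and fragments are not independent molecules. CDKN2B-AS1 itself, the targeted RNA, stood at 0.272, 0.288 and 0.191 FPKM (fragments per kilobase of gene length and per 1000000 assigned fragments) in the controls and at 0.338, 0.304 and 0.353 FPKM in the libraries labelled overexpression (exact two-sided permutation test, p = 0.1, the smallest that 3 against 3 allow). FPKM of this RNA is divided by 20420 bases of merged exons, so messages of shorter isoforms are understated. Overlap of its exons with other genes was not examined. Groups are therefore named by their labels. Of 14 adrenergic neuroblastoma markers 13 reached 1 FPKM in at least 3 libraries, all but TH, which was at most 0.300 FPKM. Their summed levels were 1277 to 1431 FPKM in control vector and 1358 to 1467 FPKM in labelled overexpression libraries. Of 10 fibroblast markers 7 reached that level, with sums of 69.1 to 85.2 and 79.0 to 93.7 FPKM. Among the 7 were FBLN1 at 12.5 to 39.1, LUM at 9.10 to 21.4, THY1 at 17.2 to 20.7 and PDGFRB at 6.23 to 11.6 FPKM. COL1A1 and COL1A2 fell short, and POSTN was at 0. Of 9 epithelial and 8 immune markers 0 reached 1 FPKM in at least 3 libraries, with KRT5, KRT14, PTPRC, CD3E, HLA-DRA and ITGAM among those at 0. Of 8 Schwann and glial markers 2 did so, with sums of 7.94 to 14.05 and 9.47 to 10.8 FPKM. The part of other cell types in the values below was not tested.

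Of the 9 members, 4 passed the filter for testing (at least 1 FPKM in at least 3 libraries): NCAM1, ST8SIA2, ST8SIA3 and B4GALNT1. ST3GAL5, B3GALT4 and ST8SIA5 lay below it, and ST8SIA1 and ST8SIA4 were listed at 0 in all 6 libraries. ST8SIA2 and NCAM1 were higher in every labelled overexpression library than in any control vector library. Such a gap between the groups, in either direction, was found in 24.1% of the 13984 tested genes, higher in 14.2% and lower in 9.90%, so 2 of 4 is given as a description of genes chosen with these values known. The ganglioside enzymes that were detected overlapped between the groups.

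**Figure D1:**
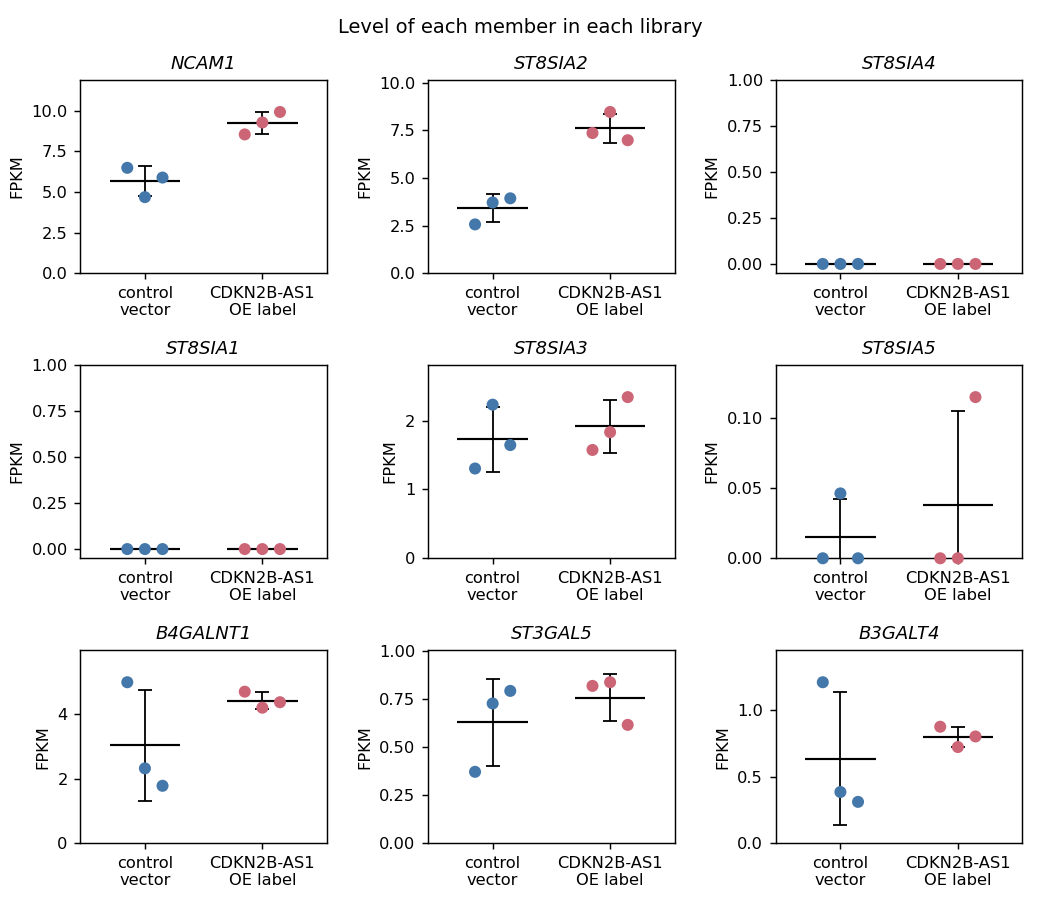
Level of each of the 9 members in FPKM (vertical axis, a separate linear scale per gene) in the 3 control vector libraries (blue, replicates 1 to 3 from left to right) and the 3 libraries labelled CDKN2B-AS1 overexpression (red); horizontal lines are means and error bars SD over 3 libraries, cut at 0. ST8SIA2 and NCAM1 separate the groups, ST8SIA1 and ST8SIA4 are at 0, and control vector replicate 1 stands apart for B4GALNT1 and B3GALT4.

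Of the polysialyltransferases, ST8SIA2 was detected in every library and ST8SIA4 in none. ST8SIA4 (ENSG00000113532, GRCh38 chromosome 5, 100806933 to 100903282, minus strand) was listed at 0 in all 6 libraries, and 3 fragments, the limit that a count of 0 allows, would have given 0.00784 to 0.0188 FPKM depending on the library. ST8SIA1 (ENSG00000111728, chromosome 12, 22063773 to 22437041, minus strand) was likewise listed at 0 throughout, with a limit of 0.00423 to 0.0101 FPKM, as was RNU1-149P, which shares 161 exonic bases with it. ST8SIA3 (ENSG00000177511, chromosome 18, 57352557 to 57371731, plus strand), which makes short sialic acid chains, was detected in every library. RefSeq promoter sequences were matched for 4 members, ST8SIA1, ST8SIA3, ST8SIA4 and ST3GAL5, and not for NCAM1, ST8SIA2, ST8SIA5, B4GALNT1 or B3GALT4. The 250 bases before the start are shown for the 2 paralogs at 0 and for the detected ST8SIA3, to set undetected beside detected members of the same enzyme family. They run 5′ to 3′ on the gene's strand in GRCh38.p14, and capitals mark the GC box GGGCGG on either strand.
ST8SIA4, chr5:100903283-100903532, minus strand: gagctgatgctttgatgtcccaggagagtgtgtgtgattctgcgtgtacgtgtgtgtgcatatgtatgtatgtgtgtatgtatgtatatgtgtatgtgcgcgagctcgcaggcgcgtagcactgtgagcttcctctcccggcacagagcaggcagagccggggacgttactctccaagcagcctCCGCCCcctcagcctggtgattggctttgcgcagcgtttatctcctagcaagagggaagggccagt
ST8SIA1, chr12:22334708-22334957, minus strand: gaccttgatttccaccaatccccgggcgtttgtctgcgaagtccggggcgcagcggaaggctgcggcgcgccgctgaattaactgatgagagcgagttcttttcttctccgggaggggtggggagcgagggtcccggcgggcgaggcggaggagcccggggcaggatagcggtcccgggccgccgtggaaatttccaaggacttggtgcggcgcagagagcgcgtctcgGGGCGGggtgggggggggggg
ST8SIA3, chr18:57352307-57352556, plus strand: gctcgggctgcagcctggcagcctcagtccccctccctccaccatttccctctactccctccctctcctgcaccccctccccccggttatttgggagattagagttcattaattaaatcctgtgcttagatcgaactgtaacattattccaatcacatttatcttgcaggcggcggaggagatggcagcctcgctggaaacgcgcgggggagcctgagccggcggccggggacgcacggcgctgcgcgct

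These windows held 13 CpG dinucleotides for ST8SIA4, 28 for ST8SIA1 and 17 for ST8SIA3, against a median of 11 over 35116 RefSeq promoter windows of the same 250 bases. Their G+C content was 55.6%, 69.2% and 60.4%, against a median of 58.0%. ST8SIA4 and ST8SIA1 each held 1 GC box and ST8SIA3 held 0, while 42.6% of all windows hold at least 1. None of the 3 windows held the E-box CACGTG, the TATA box TATAAA or the AP-1 motif TGACTCA on either strand, which stand in 6.34%, 10.7% and 4.20% of all windows. Both members at 0 thus have CpG counts above the median, as has the detected ST8SIA3. The span of ST8SIA1 in the table begins upstream of this RefSeq start, so the window covers only this one of its starts.

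ST8SIA2 (ENSG00000140557, chromosome 15, 92393881 to 92468728, plus strand, 5850 bases of merged exons) was the only polysialyltransferase of the pair detected. Its level was 2.56, 3.71 and 3.93 FPKM in the controls and 7.37, 8.47 and 6.99 FPKM in the labelled overexpression libraries. The lowest labelled overexpression library lay well above the highest control vector library. Mean levels were 3.40 ± 0.736 and 7.61 ± 0.772 FPKM (SD, n = 3 each), 2.24 times as high with the overexpression label. On log2(FPKM + 0.5) the difference was 1.07 (SE 0.19, 95% interval 0.63 to 1.504). This interval, like those of the other members below, takes no account of the choice of members after values had been seen. Among protein-coding genes above 0 in the same library, ST8SIA2 ranked above 46.0% to 52.9% of genes in control vector libraries and above 64.8% to 68.7% in labelled overexpression libraries. The values rested on 631 to 2003 fragments per library. No exon of another gene in the table overlapped those of ST8SIA2.

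NCAM1 (ENSG00000149294, chromosome 11, 112961247 to 113278436, plus strand, 12737 bases of merged exons), the carrier of the chain, showed the same order of groups with a smaller difference. It stood at 6.48, 4.68 and 5.88 FPKM in the controls and at 8.53, 9.27 and 9.92 FPKM in the labelled overexpression libraries. The groups did not overlap. Mean levels were 5.68 ± 0.919 and 9.24 ± 0.691 FPKM (SD, n = 3 each), 1.63 times as high with the overexpression label, and the difference on the log2 scale was 0.67 (SE 0.17, 95% interval 0.29 to 1.04). NCAM1 isoforms cannot be told apart in values per gene. The noncoding NCAM1-AS1 shares 613 exonic bases with NCAM1 on the other strand, and stood at 0.719, 0.457 and 0.702 FPKM in control vector and 0.959, 1.19 and 0.985 FPKM in labelled overexpression libraries, so it too separated the groups. Fragments of such pairs are not separable where strand is not used in counting. RP11-629G13.1 and RP11-839D17.3, also on the other strand, share 230 and 187 exonic bases with NCAM1 and had differences of -0.40 and 0.17 on the log2 scale, neither of which passed (limma-trend, adjusted p = 0.468 and 0.733 after Benjamini-Hochberg).

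With both genes higher, the level of ST8SIA2 relative to its substrate differed less between the groups than ST8SIA2 alone. ST8SIA2 over NCAM1, each in FPKM, was 0.395, 0.794 and 0.669 in the controls and 0.863, 0.914 and 0.705 in the labelled overexpression libraries. The groups overlapped in this ratio, with means of 0.619 ± 0.204 and 0.827 ± 0.109 (SD, n = 3 each).

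The other detected sialyltransferases of the family overlapped between the groups. ST8SIA3 stood at 1.304, 2.23 and 1.64 FPKM in the controls and at 1.57, 1.83 and 2.34 FPKM in the labelled overexpression libraries. The groups overlapped in part, with control vector replicate 1 below all labelled overexpression libraries and labelled overexpression replicate 3 above all controls, and the difference on the log2 scale was 0.13 (SE 0.25, 95% interval -0.43 to 0.68), which does not exclude a change of the size seen for NCAM1. Without control vector replicate 1 the difference was -0.02, and with the dependence on gene length removed it was 0.00. ST8SIA5 (ENSG00000101638, chromosome 18, 46667821 to 46759257, minus strand), which acts on gangliosides, was listed at 0 in 4 libraries, at 0.0461 FPKM in control vector replicate 2 and at 0.115 FPKM in labelled overexpression replicate 3. Those 2 values rested on 21 and 88 fragments, while 3 fragments would have given 0.00424 to 0.00935 FPKM in the libraries at 0. ST8SIA5-DT, which shares 672 exonic bases with ST8SIA5 on the other strand, was at 0 in labelled overexpression replicate 3. It was at 0.00322 FPKM in control vector replicate 2, and at 0.0510 FPKM in labelled overexpression replicate 1, where ST8SIA5 was at 0. Such jumps from 0 were found in other genes too: 613 protein-coding genes, 3.78% of those above 0 in any library, were at 0 in a library and over 50 fragments in another. A 0 in these libraries can therefore hide a low level beyond what counting error allows, and 3717 of 19942 protein-coding genes were at 0 in all 6.

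Within each library ST8SIA2 was the most abundant message of ST8SIA1 to ST8SIA5 per length. It made up 66.3%, 62.0% and 70.5% of their summed FPKM in the controls and 82.4%, 82.2% and 74.0% in the labelled overexpression libraries. The groups did not overlap in this share, with labelled overexpression replicate 3 nearest to the controls, and the means were 66.3 ± 4.27% and 79.5 ± 4.80% (SD, n = 3 each). ST8SIA3 over ST8SIA2 ran from 0.418 to 0.601 in control vector and from 0.214 to 0.335 in labelled overexpression libraries. Both quantities hold the ST8SIA2 level, which was among the values that led to the choice of members. They restate its difference and are not a separate result. They also depend on merged exon lengths, 5850 bases for ST8SIA2 and 10324 for ST8SIA3. In fragments, not divided by length, ST8SIA3 exceeded ST8SIA2 in control vector replicate 2, at 669 against 631. In control vector replicate 1 the counts were 607 for ST8SIA3 and 676 for ST8SIA2, and ST8SIA2 was also ahead in the remaining libraries.

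**Figure D2:**
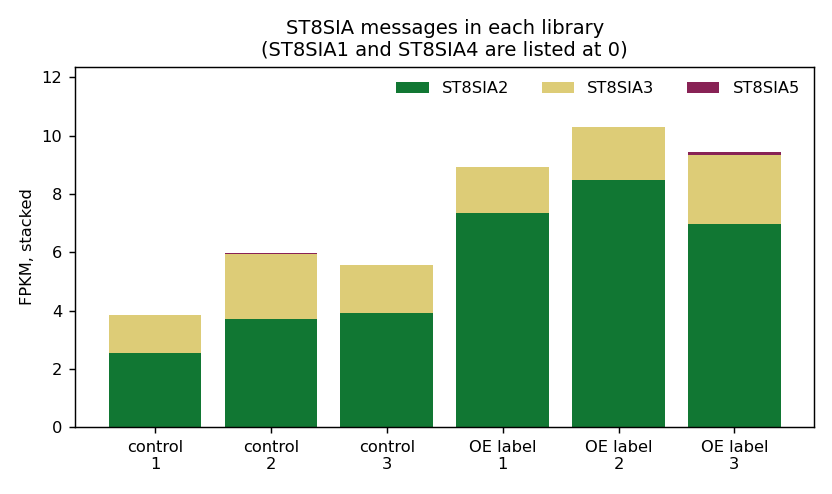
FPKM of ST8SIA2 (green), ST8SIA3 (yellow) and ST8SIA5 (purple), stacked on a linear axis from 0, in each of the 6 libraries. The green part grows from 2.56 to 3.93 FPKM in control vector libraries to 6.99 to 8.47 FPKM in labelled overexpression libraries, while the yellow part stays between 1.304 and 2.34 FPKM.

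Among the ganglioside enzymes B4GALNT1 (ENSG00000135454, chromosome 12, 57623409 to 57633239, minus strand, 7888 bases of merged exons), the GM2 and GD2 synthase, was the most abundant. It stood at 4.97, 2.31 and 1.78 FPKM in the controls and at 4.68, 4.19 and 4.35 FPKM in the labelled overexpression libraries. Control vector replicate 1 was the highest of all 6 libraries and the other 2 controls were the lowest. Mean levels were 3.02 ± 1.71 and 4.41 ± 0.251 FPKM (SD, n = 3 each), and the difference on the log2 scale was 0.58 (SE 0.30, 95% interval -0.09 to 1.253). That difference was 0.95 without control vector replicate 1 and 0.32 without control vector replicate 3, so its size rested on single libraries.

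On the other strand, SLC26A10 and RP11-571M6.19 share 2136 and 869 exonic bases with B4GALNT1, and their fragments are not separable from it without strand. SLC26A10 stood at 1.87, 0.923 and 0.299 FPKM in the controls and at 2.14, 1.26 and 1.64 FPKM in the labelled overexpression libraries. RP11-571M6.19 stood at 2.40, 1.37 and 0.640 FPKM and at 2.63, 1.61 and 2.05 FPKM in the same order. All 3 genes had their lowest value in control vector replicate 3 and a high value in control vector replicate 1. Neither overlapping gene passed (limma-trend with Benjamini-Hochberg adjustment, adjusted p = 0.426 for SLC26A10 and 0.497 for RP11-571M6.19).

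**Figure D3:**
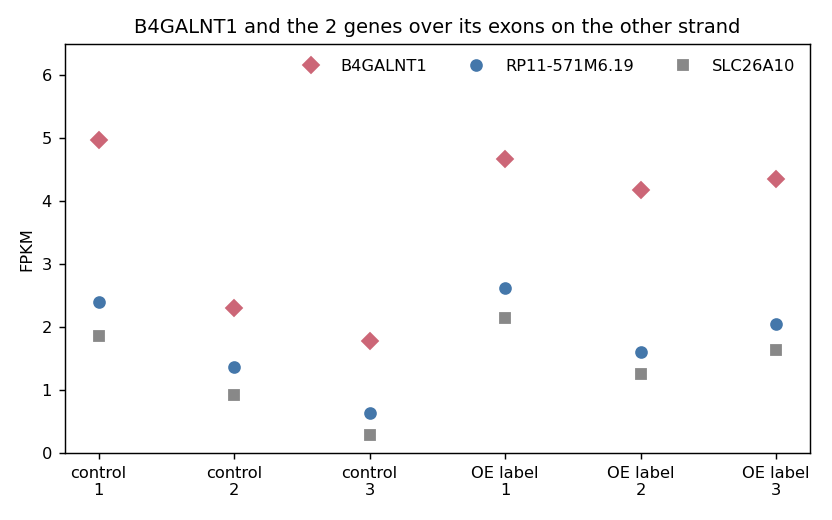
FPKM (linear axis from 0) of B4GALNT1 (diamonds), RP11-571M6.19 (circles) and SLC26A10 (squares) in each of the 6 libraries. All 3 are low in control vector replicate 3, at 1.78, 0.640 and 0.299 FPKM, and higher in control vector replicate 1, at 4.97, 2.40 and 1.87 FPKM.

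ST3GAL5 (ENSG00000115525, chromosome 2, 85837120 to 85905199, minus strand), the GM3 synthase that opens the pathway, lay below 1 FPKM in every library. Its level was 0.373, 0.729 and 0.794 FPKM in the controls and 0.820, 0.839 and 0.617 FPKM in the labelled overexpression libraries. The groups overlapped, with means of 0.632 ± 0.227 and 0.759 ± 0.123 FPKM (SD, n = 3 each) resting on 274.07 to 562 fragments per library. FPKM is divided by 16300 bases of merged exons for this gene, so messages of shorter isoforms are understated. B4GALNT1 exceeded ST3GAL5 in each library, by 13.3, 3.18 and 2.24 times in the controls and by 5.71, 4.99 and 7.05 times in the labelled overexpression libraries.

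B3GALT4 (ENSG00000235863, chromosome 6, 33277123 to 33284832, plus strand), the GM1 and GD1b synthase, had the fewest fragments of the members detected in every library, 26.5 to 129. It stood at 1.21, 0.386 and 0.312 FPKM in the controls and at 0.876, 0.723 and 0.803 FPKM in the labelled overexpression libraries. Control vector replicate 1 was again the highest library and the other 2 controls the lowest, as for B4GALNT1. Mean levels were 0.636 ± 0.498 and 0.800 ± 0.0763 FPKM (SD, n = 3 each). The ratio of B3GALT4 to B4GALNT1 varied less than either gene, from 0.167 to 0.243 in control vector and from 0.173 to 0.187 in labelled overexpression libraries. WDR46, which overlaps the span of B3GALT4 on the other strand, shares 0 exonic bases with it.

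In order of level per length in control vector libraries the members ran NCAM1, ST8SIA2, B4GALNT1, ST8SIA3, B3GALT4, ST3GAL5, ST8SIA5, and then ST8SIA1 and ST8SIA4 at 0. ST8SIA2 and B4GALNT1, at 3.40 ± 0.736 and 3.02 ± 1.71 FPKM, and B3GALT4 and ST3GAL5, at 0.636 ± 0.498 and 0.632 ± 0.227 FPKM (SD, n = 3 each), differed by less than their spread. In labelled overexpression libraries ST8SIA2 stood at 7.61 ± 0.772 FPKM, apart from B4GALNT1 at 4.41 ± 0.251 FPKM and below NCAM1 at 9.24 ± 0.691 FPKM (SD, n = 3 each). No pair of the 9 members shared an exact stretch of 50 bases among their 152 annotated transcripts, out of 36 pairs.

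Read across all genes, 159 of 13984 tested genes were called at an adjusted p under 0.05 (limma-trend, Benjamini-Hochberg), 1.14% of them. Of the 4 tested members 1, ST8SIA2, was called, beside a background of 0.529% called higher and 0.608% called lower. Since this gene was among the values that led to the choice of members, nothing is read from that count. The call is not stable: it was lost without a filter, without the mean-variance trend, and without control vector replicate 1 or 2 or any of labelled overexpression replicates 1, 2 and 3, settings in which 0 to 3 genes were called in all. Differences between groups also depended on gene length. The median log2 difference was -0.05 over 2622 tested genes of up to 1000 merged exonic bases and 0.20 over 1192 genes of over 10000, the class of NCAM1 and ST8SIA3. It was 0.11 over 4072 genes of over 5000 and up to 10000, the class of ST8SIA2 and B4GALNT1. With the dependence on length removed from each library, the log2 differences were 1.02 for ST8SIA2, 0.52 for NCAM1 and 0.49 for B4GALNT1.

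**Figure D4:**
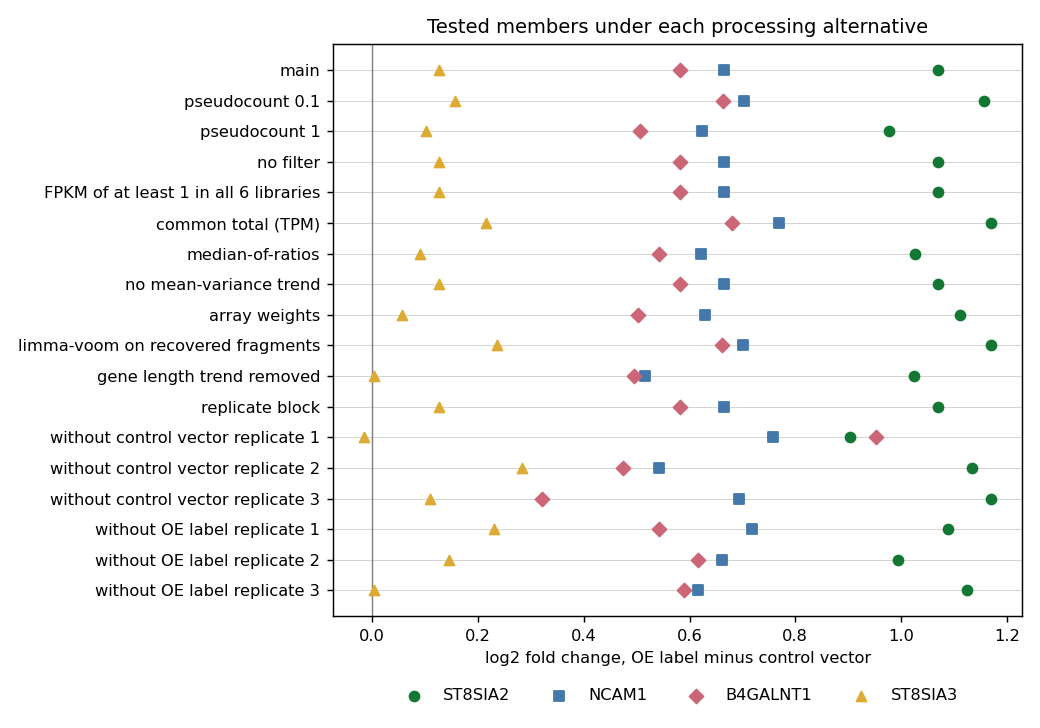
Log2 difference between labelled overexpression and control vector libraries (horizontal axis) for the 4 tested members in the fit as reported (top) and under 17 processing alternatives (lines below). ST8SIA2 stays between 0.90 and 1.17 and NCAM1 between 0.52 and 0.77, B4GALNT1 ranges from 0.32 to 0.95 with single control vector libraries left out, and ST8SIA3 reaches -0.02.

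Genes around the members in the same pathways were examined in 8 lists holding 120 genes, of which 82 were high enough to test. None was called: 0 of 82 passed in limma-trend with Benjamini-Hochberg adjustment, and 0 in limma-voom on the recovered fragments. At an unadjusted p under 0.05 there were 13 in limma-trend, 12 higher and 1 lower, and 15 in limma-voom. Those 13 make 15.9% of the list genes, beside 17.7% of all tested genes at the same level. Log2 differences were above 0 in 59 of the 82, 72.0% against 56.8% of all tested genes, with a median of 0.15 against 0.05. The groups did not overlap for 15 of the 82 in the higher direction (18.3%) and for 2 in the lower, beside 14.2% and 9.90% of all tested genes. Of 32 genes named from the lists by smallest p, 19 had a difference that moved by over 1.5 times when a library was left out, and 2 of these turned sign. For those 19 the lowest and highest log2 difference with each library left out in turn follow in brackets. As values per gene are shared by whole cultures, fewer cells making a message and less message per cell cannot be told apart, here or for the members.

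The supply of activated sialic acid, which both the polysialyltransferases and the ganglioside sialyltransferases use, held 9 tested genes of 10, with 0 called and a median of 0.08. GNE, the rate-limiting enzyme of sialic acid synthesis, stood at 2.81, 1.45 and 1.23 FPKM in control vector and 4.38, 3.75 and 4.26 FPKM in the labelled overexpression libraries. The groups did not overlap, and the log2 difference of 1.05 (SE 0.26) did not pass (limma-trend, Benjamini-Hochberg adjusted p = 0.0931). The phosphatase NANP and the Golgi transporter of CMP-sialic acid, SLC35A1, had log2 differences of -0.36 (-0.59 to -0.23) and -0.30 (-0.51 to -0.14). PGM3, of the hexosamine pathway, had 0.41 (0.12 without control vector replicate 2 to 0.58). CMAS, which activates sialic acid and overlaps the span of ST8SIA1 with 0 shared exonic bases, stood at 32.7 ± 11.0 and 33.6 ± 1.66 FPKM (SD, n = 3 each). The level of CMAS does not tell whether ST8SIA1 message was captured.

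The supply of ceramide and glucosylceramide, the lipid base of gangliosides, held 16 tested genes of 21, with 0 called and a median of 0.06. UGCG, which adds the first sugar to ceramide, was lower in all 3 labelled overexpression libraries, at 1.72, 1.48 and 1.82 FPKM against 3.74, 2.77 and 2.59 FPKM in the controls. Its log2 difference of -0.69 (SE 0.22) did not pass (limma-trend, Benjamini-Hochberg adjusted p = 0.155). SPTSSB, a small subunit of serine palmitoyltransferase, had 0.69, the ceramide synthase CERS5 had -0.28 and SPTLC2, a large subunit of the same transferase, had 0.35 (0.21 to 0.48). In the branches that compete for ceramide and in its breakdown, 9 of 14 were tested, with 0 called and a median of 0.30. Ceramide kinase, CERK, had 0.50 (0.23 without control vector replicate 1 to 0.66) and the sphingosine kinase SPHK1 0.89 (0.53 to 1.34). The galactosylceramide synthase UGT8 had 0.88 (0.14 without control vector replicate 2 to 1.39 without control vector replicate 3), and the sphingosine phosphate lyase SGPL1 0.26 (0.13 to 0.35).

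Further enzymes of gangliosides and globosides held 9 tested genes of 14, with 0 called and a median of 0.05, the same as over all genes. The sialyltransferases ST6GALNAC5 and ST6GALNAC3 had 0.32 (0.09 to 0.44) and 0.31 (0.10 to 0.47), both lowest without control vector replicate 1. B3GNT5, which starts the lacto series, had -0.33 (-0.56 to -0.16), and ST3GAL2, which adds sialic acid to GM1, had 0.22 (0.14 to 0.33). Of 6 other sialyltransferases of proteins 4 were tested and 0 called, with a median of 0.20. ST6GAL2 stood at 0.761, 0.741 and 0.317 FPKM in control vector and 1.96, 1.69 and 1.36 FPKM in the labelled overexpression libraries, without overlap and without passing (limma-trend, Benjamini-Hochberg adjusted p = 0.124). It passed the filter through the labelled overexpression libraries alone. ST3GAL4 had 0.22 (0.14 to 0.28) and ST3GAL6 -0.20 (-0.42 without control vector replicate 2 to -0.02 without control vector replicate 1). ST6GAL1 had 0.18 (-0.02 without control vector replicate 3 to 0.37), so its sign rested on that library.

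The list for ganglioside breakdown held 15 tested genes of 17, with 0 called and a median of 0.17. It also takes in enzymes of other sphingolipids, GALC among them, and proteins that are not enzymes. GALC, a galactosylceramidase, stood at 3.01 ± 0.691 and 4.82 ± 0.433 FPKM, and NEU3, the membrane sialidase that acts on gangliosides, at 1.98 ± 0.224 and 3.01 ± 0.347 FPKM (SD, n = 3 each). Their log2 differences were 0.62 and 0.50 without passing (limma-trend, Benjamini-Hochberg adjusted p = 0.169 and 0.241). SCARB2, a lysosomal membrane protein, and GM2A, the GM2 activator, had 0.32 and 0.33 (for GM2A 0.19 to 0.45).

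Relatives and partners of NCAM1 held 14 tested genes of 27, with 0 called and a median of 0.17. The groups did not overlap for 6 of them, all higher, in a table where 14.2% of all tested genes were higher without overlap. GAP43, a growth cone protein, stood at 76.8, 95.0 and 82.8 FPKM in control vector and 125, 124 and 107 FPKM in the labelled overexpression libraries. Its log2 difference of 0.48 (SE 0.11) had the smallest adjusted p of all list genes, 0.0813 (limma-trend, Benjamini-Hochberg). It passed with values rescaled to a common total, at 0.59 (adjusted p = 0.0286), and with array weights, at 0.51 (adjusted p = 0.0460, both limma-trend with Benjamini-Hochberg). N-cadherin, CDH2, had 0.58, the proteoglycan VCAN 0.65 and the Golgi glycoprotein GLG1 0.45. The related adhesion molecule L1CAM had 0.13. Of 11 genes for the N-glycan branches on which the chain is built 6 were tested and 0 called, with a median of 0.09. MGAT5, which adds a branch, had 0.65 (0.42 to 0.87) and MGAT2 0.29. The core fucosyltransferase FUT8 had -0.10 (-0.18 to -0.03), and the galactosyltransferase B4GALT2 0.13 (-0.05 without labelled overexpression replicate 1 to 0.36 without labelled overexpression replicate 3).

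**Figure D5:**
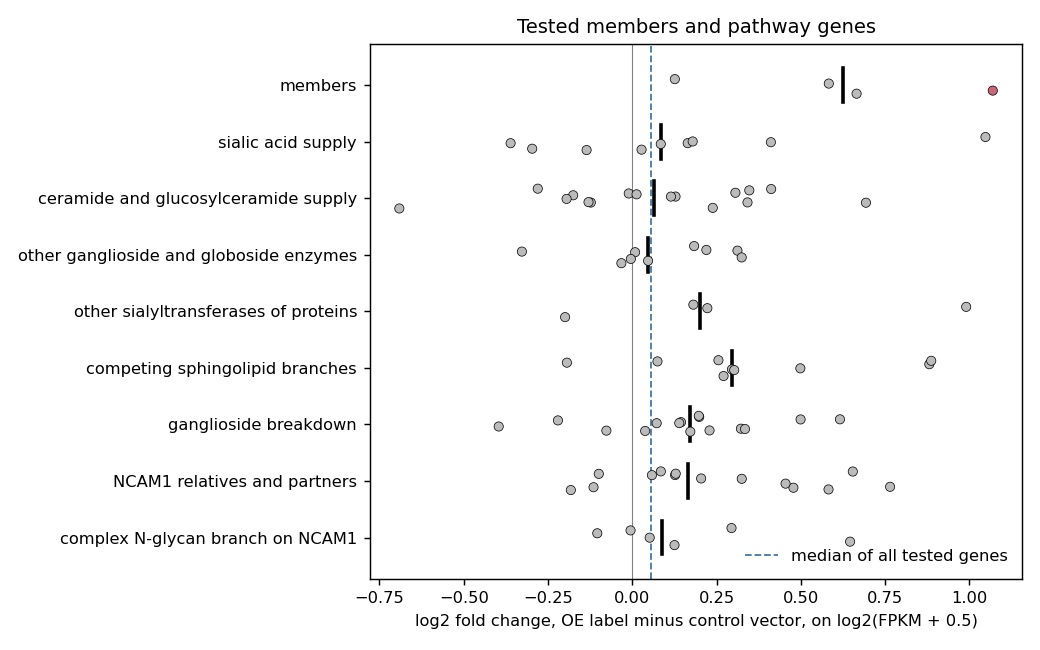
Log2 difference between labelled overexpression and control vector libraries, on log2(FPKM + 0.5), for each tested member (top line) and each tested gene of the 8 pathway lists (points, spread vertically for legibility), with the median of each line as a black bar and the median of all tested genes, 0.05, as a dashed line. The red point is ST8SIA2 at 1.07, the single gene called, and the highest pathway gene is GNE at 1.05.

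Profiles over the 6 libraries nearest to those of the members were found as the root mean square distance between log2 values centred on each gene's mean. For ST8SIA2 the nearest of the tested genes outside the group were STBD1, at a distance of 0.05, and PABIR2, at 0.06, against a median distance of 0.59 over all. For NCAM1 they were USP42 and OSBP2, at 0.05 each, against a median of 0.42. For B4GALNT1 they were LRCH1 at 0.06 and PRNP at 0.11, against a median of 0.53, and both had their highest control value in control vector replicate 1. PRNP is also in the list of NCAM1 relatives and partners, where its log2 difference of 0.76, not called, was the largest. For ST8SIA3 they were SPTY2D1 at 0.05 and BSDC1 at 0.06, against a median of 0.33. With 6 libraries and 13984 genes such near matches describe these libraries. The smallest of so many distances lies below their median in any case. PABIR2 and OSBP2 had means under the filter level of 1 FPKM in the controls, at 0.408 and 0.886 FPKM. In labelled overexpression libraries their means were 1.42 and 1.66 FPKM.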

How the data were processed

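Per the labels' protocols, column-purified RNA was turned into cDNA by SMART-seq and both ends of fragments were read. STAR 2.7.9, featureCounts 2.0.1 and GRCh38.p13 are named in the submitters' processing notes, and options, such as the use of strand, are not given in the sources used here. The authors deposited FPKM per gene and library, with gene length in bases and exon positions per the file headers. Each library's FPKM, weighted by gene length in kilobases, added up to 1000000. From the smallest steps the depth was recovered. Of values up to 1000 fragments, 100% were multiples of a hundredth of a fragment within 0.001 fragments, and 44.2% to 49.0% were whole. The depth was chosen so that the smallest values were such multiples, so the 100% is in part fixed in advance.

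Genes with at least 1 FPKM in at least 3 of 6 libraries (13984) entered a limma-trend fit (limma 3.58.1, R 4.3.3) of log2(FPKM + 0.5) without a block, with Benjamini-Hochberg adjustment over all tested genes at 0.05. Differences are labelled overexpression minus control vector and understate changes of low genes. Values at 0 are given per library. The fit was tested on simulated data. Named are all members, genes overlapping them, up to 4 genes of smallest p per pathway list and the 2 nearest profiles per tested member; overlapping genes below the filter are named in part, and L1CAM was added after its value was seen. Members and lists were chosen with earlier results of these data known. The 17 alternatives changed the pseudocount, filter, scaling, variance model, weights, length dependence or block, used limma-voom on recovered fragments, or left out a library. Promoters are from RefSeq (GRCh38.p14), shared words from GENCODE v29 transcripts.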

Additional observations from a re-analysis of the deposited data

How the results depend on the processing

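The number of genes called over all tested genes, 159, was 0 without a filter and 0 without the mean-variance trend (3538 and 2304 genes at an unadjusted limma p under 0.05), 269 with at least 1 FPKM required in all 6 libraries and 265 with array weights. Leaving out a library gave 0 to 124 calls. A common total per library moved the median of all tested genes from 0.05 to 0.15 and the split from 74 higher and 85 lower to 181 higher and 52 lower, while median-of-ratios factors gave 59 higher and 119 lower. Relatives and partners of NCAM1 had 1 call, GAP43, with a common total and 1 with array weights, in place of 0, and the other 7 pathway lists had 0 calls in every alternative. List medians depended on scaling and length. That of NCAM1 relatives and partners, 0.17 as reported, was 0.27 with a common total and 0.08 with the length dependence removed. For ganglioside breakdown, 0.17 as reported, they were 0.28 and 0.13. ST8SIA2, NCAM1 and B4GALNT1 kept a positive difference in 17 of 17 alternatives, and ST8SIA3 in 16. For ST8SIA2 and NCAM1 the groups did not overlap, so leaving out a library or changing the pseudocount or filter could not turn the sign. All alternatives reuse the same 6 libraries, and nothing is supported by these counts. Deviations of same-numbered libraries correlated at -0.02, 0.11 and 0.12, and those of differently numbered libraries at -0.18 to 0.10. Whether the replicate numbers pair the libraries cannot be told from so few values. With the replicate block 229 genes were called, ST8SIA2 among them, and 0 pathway genes. With a control vector or labelled overexpression library left out, the CDKN2B-AS1 difference was 0.0520 to 0.101 FPKM. The exact two-sided permutation test gave p = 0.1 or 0.2 in these settings, with 0.1 the smallest possible. With amplified cDNA, depth does not limit the values at 0 by counting alone.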
